A study of Rattus norvegicus with 64 samples.

Results

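Choroid plexus epithelium was followed through 8 genes that mark it, Ttr, Kl, Sostdc1, Kcnj13, Clic6, Prlr, Folr1 and Aqp1, chosen by symbol in the authors' comparison tables. All 8 matched 1 identifier each, out of 32552 rows other than ERCC spike-ins in the deposited count tables, 1 of them a donor row. The counts come from RNA sequencing of the hippocampus and the cortex of 32 rats, 64 libraries in all, so that each rat gave 1 library of each region.

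The rats carried ApoE4 or ApoE3, forms of the lipid carrier apolipoprotein E known from people, of which ApoE4 carries the higher risk of Alzheimer disease. How the lines were made is not given in the sources used here. Doxorubicin, an anthracycline that blocks topoisomerase II, was given at 2 mg/kg per week for 4 weeks from an age of 5 weeks, and the other rats are labelled phosphate-buffered saline (PBS). Both brain regions were taken 5 to 6 weeks after the last dose. The 8 groups are ApoE4 doxorubicin, ApoE4 PBS, ApoE3 doxorubicin and ApoE3 PBS in the hippocampus, and the same 4 in the cortex, each with 8 libraries from 4 females and 4 males.

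The choroid plexus is a fringe of epithelium that hangs into the brain ventricles and secretes cerebrospinal fluid. It forms a barrier between blood and that fluid, and it carries hormones, vitamins and ions across. The ventricle that borders the hippocampus holds a strand of it, and the cortical grey matter itself holds none. In bulk tissue, fewer cells of this epithelium and less RNA per cell cannot be told apart.

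Library totals lay between 10.8M and 20.4M counts (median 14.5M). Depth and group size bound the precision of each value. Levels are CPM, counts scaled to a common library total with TMM factors, with 1 added as prior count before log2. Without transcript lengths, levels were compared between libraries and not between genes. The region labels were checked with 4 genes of hippocampal neurons (Prox1, Dsp, Wfs1, Cpne7), whose summed level was 579 to 833 CPM in the hippocampal libraries and 174 to 347 CPM in the cortical ones, with no overlap.

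Promoter windows are shown for members that rose and fell together, to let the reader compare the start regions of genes of 1 cell type. RefSeq (build GRCr8) had windows for 5 of the 8 members, 6 windows in all because Prlr has 2, each with 250 bases before and 50 after the gene start. Those of Ttr (chr18:12218508-12218807, plus strand), Kl (chr12:5325753-5326052, plus strand), Kcnj13 (chr9:95518937-95519236, minus strand) and Aqp1 (chr4:85812534-85812833, plus strand) read as follows, with matches to the TATA box letters TATAAA and to the Sp1-type letters GGGCGG in capitals. A GGGCGG on the other strand appears as CCGCCC.
Ttr: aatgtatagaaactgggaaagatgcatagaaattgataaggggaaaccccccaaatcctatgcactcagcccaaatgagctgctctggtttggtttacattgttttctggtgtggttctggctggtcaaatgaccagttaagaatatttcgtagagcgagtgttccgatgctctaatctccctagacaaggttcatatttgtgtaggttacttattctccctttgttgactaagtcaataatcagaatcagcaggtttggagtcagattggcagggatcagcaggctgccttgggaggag
Kl: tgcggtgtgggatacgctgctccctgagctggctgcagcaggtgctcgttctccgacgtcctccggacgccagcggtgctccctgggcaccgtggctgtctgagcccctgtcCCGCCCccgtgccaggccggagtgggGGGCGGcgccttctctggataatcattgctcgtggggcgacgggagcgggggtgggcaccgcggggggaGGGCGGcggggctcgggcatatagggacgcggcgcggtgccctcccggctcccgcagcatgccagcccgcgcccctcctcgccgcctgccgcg
Kcnj13: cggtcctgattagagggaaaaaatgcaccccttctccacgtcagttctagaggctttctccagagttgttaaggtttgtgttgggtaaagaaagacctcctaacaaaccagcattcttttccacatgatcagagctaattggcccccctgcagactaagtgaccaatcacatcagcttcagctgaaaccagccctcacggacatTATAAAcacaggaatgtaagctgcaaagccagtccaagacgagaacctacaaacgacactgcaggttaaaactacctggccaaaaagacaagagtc
Aqp1: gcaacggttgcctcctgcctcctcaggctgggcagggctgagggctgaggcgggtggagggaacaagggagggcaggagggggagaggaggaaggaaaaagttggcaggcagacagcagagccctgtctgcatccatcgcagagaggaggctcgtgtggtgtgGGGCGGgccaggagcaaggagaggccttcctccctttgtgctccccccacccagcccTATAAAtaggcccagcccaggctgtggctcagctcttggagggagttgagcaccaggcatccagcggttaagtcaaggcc

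The windows differ in base composition, with a GC content of 43.7% for Ttr, 75.0% for Kl, 46.3% for Kcnj13 and 64.0% for Aqp1, against a median of 51.7% over all 33469 windows of the table. TATAAA began 46 bases before the start of Kcnj13 and 30 bases before that of Aqp1, and 14.2% of all windows hold it on either strand. GGGCGG was found at 3 places in the Kl window and at 1 in that of Aqp1, and 33.1% of all windows hold it. TAATCC, the core letters bound by OTX2, was in none of the 6 windows and in 7.17% of all windows. None of these motifs overlapped another, and a match or its absence here describes letters only.

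Ttr encodes transthyretin, the carrier of thyroxine and retinol-binding protein that choroid epithelium secretes in bulk. In the hippocampus its level spanned 1.92 to 10670 CPM over the 32 libraries, a ratio of 5553 between the highest and the lowest, and its count ran from 25 to 164331. A few libraries held nearly all of it. The 9 libraries with at least 4000 Ttr counts carried 98.2% of all hippocampal Ttr counts. The lowest of these 9 had 4369 counts and the next library down had 1376.

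Those 9 libraries came from every hippocampal group. In the ApoE4 doxorubicin group they were those of rat 10 (1990 CPM) and rat 13 (536 CPM). In the ApoE4 PBS group they were rat 7 (10670 CPM), rat 26 (5090 CPM) and rat 19 (294 CPM). The ApoE3 doxorubicin group had rat 51 (5548 CPM) and rat 65 (4503 CPM), and the ApoE3 PBS group had rat 37 (2921 CPM) and rat 41 (628 CPM). High Ttr therefore occurred in 4 doxorubicin and 5 PBS libraries, in 5 ApoE4 and 4 ApoE3 libraries, and in 3 females and 6 males. The bound of 4000 counts was set after the values were seen, and serves only to select libraries with enough counts for ratios between genes.

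By group, hippocampal Ttr was at 4.26, 27.7 and 1990 CPM (lowest, median, highest) in ApoE4 doxorubicin rats, against 8.56, 95.4 and 10670 CPM in ApoE4 PBS rats. It was at 1.92, 7.42 and 5548 CPM in ApoE3 doxorubicin rats, against 4.19, 57.3 and 2921 CPM in ApoE3 PBS rats. On the log2 scale, every pair of groups overlapped over most of its range. In each group the SD exceeded the mean, with 335 ± 693 CPM in ApoE4 doxorubicin, 2035 ± 3905 CPM in ApoE4 PBS, 1263 ± 2339 CPM in ApoE3 doxorubicin and 470 ± 1012 CPM in ApoE3 PBS rats (SD, n = 8 each). A single library supplied 60.7% to 79.9% of the Ttr counts of its hippocampal group.

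In the cortex Ttr was lower in the middle of its range, at 2.05, 5.71 and 68.9 CPM in ApoE4 doxorubicin rats and 3.53, 8.31 and 579 CPM in ApoE4 PBS rats. ApoE3 doxorubicin rats had 1.09, 1.95 and 550 CPM and ApoE3 PBS rats 1.26, 4.66 and 756 CPM. The cortical libraries with at least 4000 Ttr counts were 3 in number, all from females: rat 72 in the ApoE3 doxorubicin group, rat 19 in the ApoE4 PBS group and rat 58 in the ApoE3 PBS group. Those of rats 72 and 58 held 91.1% and 95.5% of the Ttr counts of their groups.

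**Figure D1:**
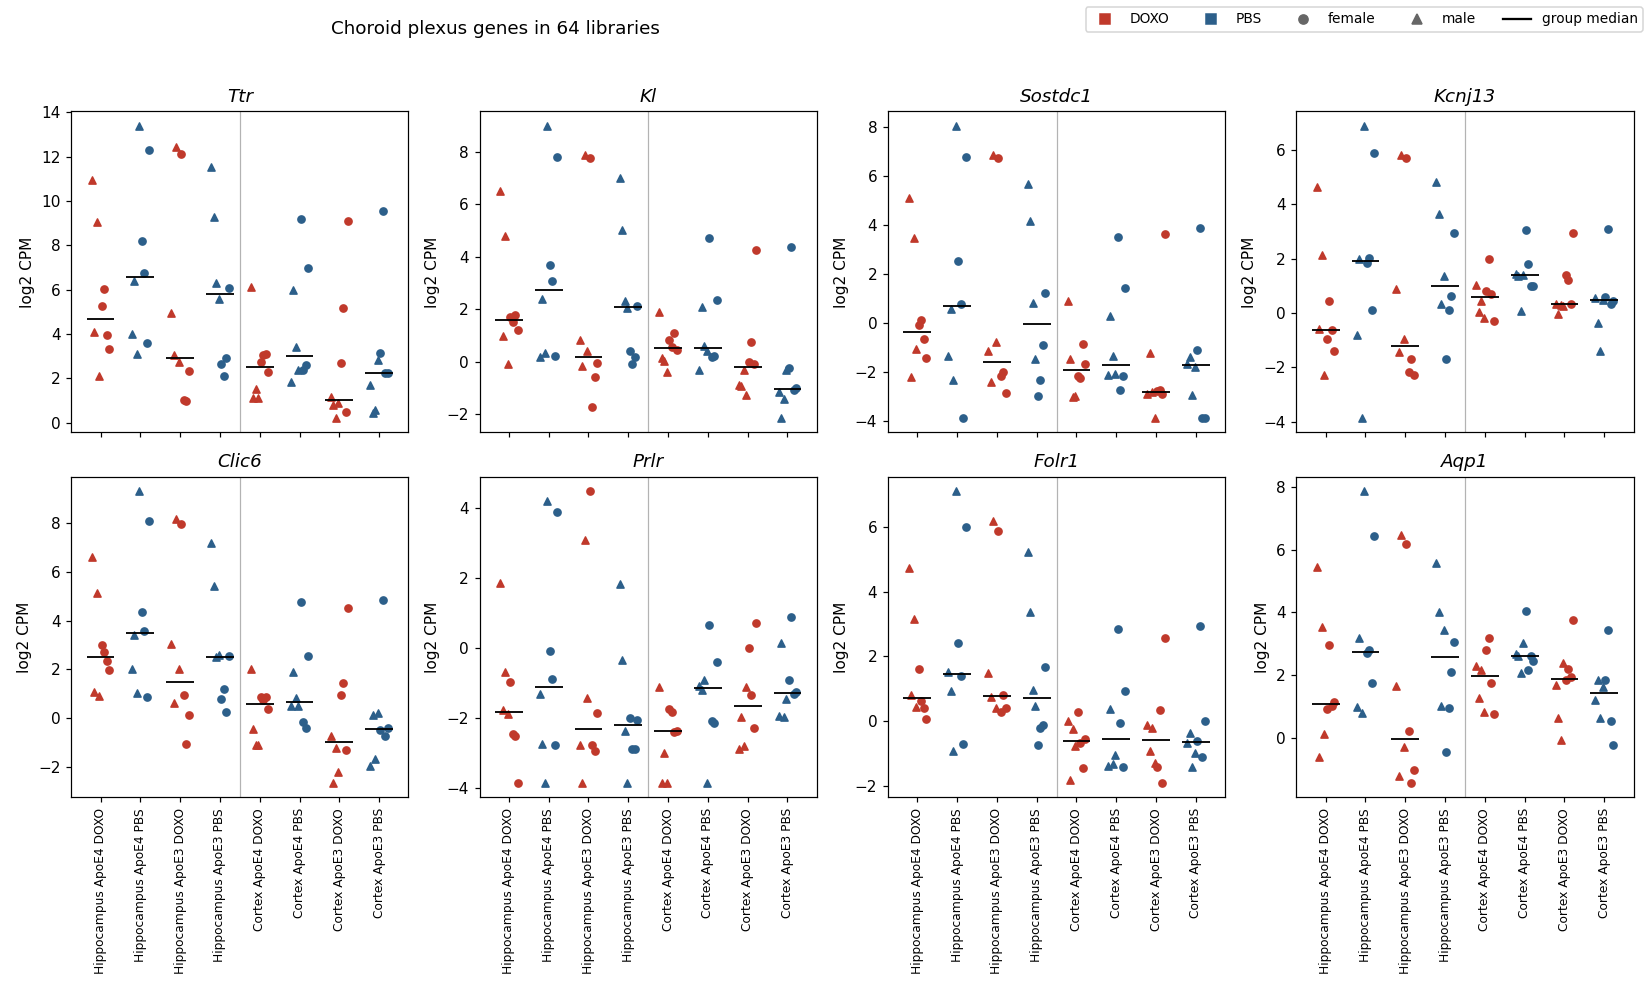
Each panel shows 1 gene and each point 1 library, as log2 CPM with a prior count of 1, in the 8 groups of region, genotype and treatment; circles are females, triangles males, and the bar is the group median. In the hippocampal Ttr panel, a few libraries of each group reach up to 10670 CPM while group medians stay at 7.42 to 95.4 CPM.

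The 7 other members were highest in much the same libraries, with some changes in their order. Kl encodes klotho, a co-receptor for FGF23 that choroid epithelium also sheds, and Clic6 a chloride intracellular channel protein. Kl had 0.88, 2.97 and 90.2 CPM (lowest, median, highest) in hippocampus of ApoE4 doxorubicin rats, against 1.07, 6.79 and 505 CPM in ApoE4 PBS rats. In ApoE3 doxorubicin rats it had 0.232, 1.09 and 236 CPM, against 0.865, 4.17 and 129 CPM in ApoE3 PBS rats. The same rats were at the top as for Ttr, and the groups overlapped.

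Clic6 had 1.83, 5.74 and 96.2 CPM in hippocampus of ApoE4 doxorubicin rats, against 1.78, 11.3 and 627 CPM in ApoE4 PBS rats. In ApoE3 doxorubicin rats it had 0.420, 2.91 and 287 CPM, against 1.13, 5.65 and 146 CPM in ApoE3 PBS rats. Its groups overlapped as those of Ttr and Kl did.

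Sostdc1, a secreted inhibitor of BMP and Wnt signalling, reached 34.3 CPM in ApoE4 doxorubicin, 262 CPM in ApoE4 PBS, 116 CPM in ApoE3 doxorubicin and 51.1 CPM in ApoE3 PBS hippocampus, with group medians of 0.730, 1.53, 0.281 and 1.08 CPM in that order. Kcnj13 encodes the inward rectifier potassium channel Kir7.1 of the apical membrane, and Aqp1 the water channel of the same membrane. Kcnj13 reached 24.5, 118, 56.2 and 28.5 CPM in the same 4 groups, with medians of 0.583, 3.71, 0.372 and 1.98 CPM. Aqp1 reached 43.6, 233, 88.0 and 47.4 CPM, with medians of 2.05, 6.62, 0.915 and 6.19 CPM. For these genes, too, the highest libraries of each group stood far above its median, and the groups overlapped.

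Folr1 encodes the folate receptor alpha that moves folate into cerebrospinal fluid, and Prlr the prolactin receptor, which takes prolactin up from blood. Folr1 reached 26.2 CPM in ApoE4 doxorubicin, 136 CPM in ApoE4 PBS, 72 CPM in ApoE3 doxorubicin and 37.1 CPM in ApoE3 PBS hippocampus. Prlr was sparse, with medians of 0.212, 0.398, 0.143 and 0.147 CPM in these groups, and 4 of the 32 hippocampal libraries had no Prlr count. A count of 0 allows up to 3 counts in such a library.

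The 9 hippocampal libraries with the most counts were the same as for Ttr for Kl, Sostdc1, Clic6, Prlr and Folr1, and 8 of 9 were shared for Kcnj13 and Aqp1. By share of all hippocampal counts, the 9 highest libraries of each gene held 96.7% for Kl, 98.3% for Sostdc1, 93.8% for Kcnj13, 95.2% for Clic6, 95.8% for Prlr, 92.6% for Folr1 and 90.7% for Aqp1. In the cortex the 3 highest libraries were those of rats 58, 19 and 72 for each of the 8 members. They held 81.2% of the cortical Ttr counts and 24.8% of those of Aqp1, whose remaining cortical libraries were less far below.

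How strongly the members rose and fell together was measured over the 32 libraries of a region, on log2 CPM as deviations from the group means, for 28 pairs per region and 56 in all. In the hippocampus Pearson's r ran from 0.835 (Prlr with Aqp1) to 0.986 (Ttr with Kl) with a median of 0.942, and Spearman's rho from 0.573 to 0.967. Each pair had a two-sided permutation p with a Benjamini-Hochberg adjusted value of at most 1.33e-05 for r and 0.000865 for rho. The lowest p that the 100000 permutations can give is 1e-05. Without the 2 libraries farthest from the median of the first gene, r was 0.768 to 0.980. Within single groups of 8 libraries, the lowest r of a pair was 0.611 and the highest 0.995.

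In the cortex r ran from 0.553 (Folr1 with Aqp1) to 0.960 (Ttr with Kl) with a median of 0.764, and rho from 0.306 to 0.886. The adjusted permutation p was at most 0.00118 for r and 0.0884 for rho, so by rank some pairs did not pass. Without the 2 farthest libraries the cortical r was 0.337 to 0.926. Within single cortical groups, the lowest r of a pair was -0.003 (Sostdc1 with Folr1) and the highest 0.992. Cortical counts of several members were small, with a median of 2 counts per library for Sostdc1, 3.5 for Prlr and 9 for Folr1.

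Among the libraries with few Ttr counts r was lower. This cut is on Ttr, itself a member, and narrows the range of values, so it cannot show whether the members moved together less. These r are on log2 CPM itself, not on deviations from group means. Over all 32 libraries that measure had a median of 0.9355 in the hippocampus and 0.742 in the cortex. Over the 23 hippocampal libraries below 4000 Ttr counts, r between members ran from -0.06 to 0.921 with a median of 0.624. Over the 29 such cortical libraries it ran from 0.021 to 0.843 with a median of 0.447. The paired values share their library, its depth and its scaling, and no p is given for these subsets.

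**Figure D2:**
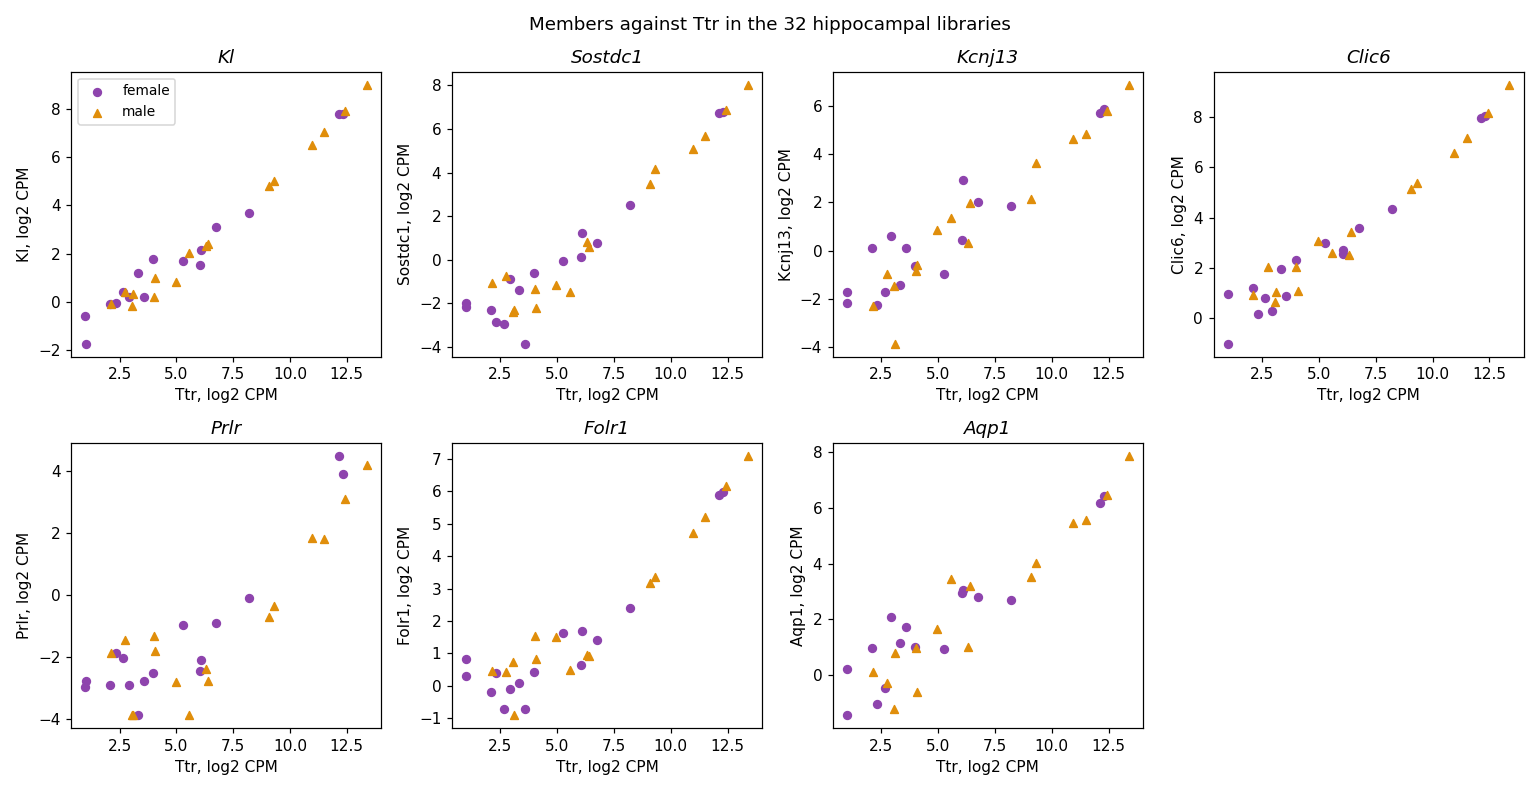
Log2 CPM of 7 members (vertical axes) against log2 CPM of Ttr (horizontal axes) in the 32 hippocampal libraries, with 1 point per library, circles for females and triangles for males. Kl follows Ttr most closely (r = 0.986 on deviations from group means), and Prlr least (r = 0.893).

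Among the 9 hippocampal libraries with at least 4000 Ttr counts the members kept nearly fixed proportions to Ttr. Kl had 42.5 to 51.2 counts per 1000 Ttr counts, with a median of 45.3, while Ttr itself differed between these libraries from 294 to 10670 CPM. Sostdc1 had 17.3 to 28.6, Clic6 48.3 to 68.9, Folr1 12.4 to 17.9 and Aqp1 15.9 to 25.6 counts per 1000 Ttr counts. Kcnj13 varied more, from 8.04 to 19.9, and Prlr most, from 1.02 to 4.92, a ratio of 4.83 between its highest and its lowest library.

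These ratios compare 1 gene between libraries, since gene lengths were not used. On a log2 scale, the slope of a member on Ttr over these 9 libraries was 0.98 for Kl, 1.00 for Sostdc1, 0.96 for Kcnj13, 0.92 for Clic6, 1.06 for Prlr, 0.89 for Folr1 and 0.91 for Aqp1. A slope of 1 means that a member changes by the same factor as Ttr. Over all 32 hippocampal libraries the slopes were lower, from 0.57 for Folr1 to 0.88 for Sostdc1, and in the cortex they were 0.27 for Aqp1 to 0.70 for Sostdc1. Many of these libraries had few counts, with hippocampal medians of 3 for Prlr, 9 for Sostdc1 and 27.5 for Folr1. The prior count narrows the spread of small values, so these slopes need not mean that members changed less than Ttr. In the 3 cortical libraries with at least 4000 Ttr counts, Kl had 26.9 to 45.4, Clic6 37.7 to 46.1 and Prlr 2.32 to 2.85 counts per 1000 Ttr counts.

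Prlr split these 9 libraries by sex. The 3 female libraries had 2.90, 2.98 and 4.92 Prlr counts per 1000 Ttr counts (rats 26, 19 and 65), on 217, 13 and 294 Prlr counts, and the 6 male libraries had 1.02 to 1.77. The sexes did not overlap for Prlr and overlapped for the other 6 members. This split was seen in the values before it was tested. Over all 32 hippocampal libraries, edgeR with log2 CPM of Ttr as covariate gave a log2 female over male of 0.74 for Prlr (SE 0.36, adjusted p = 0.475), which did not pass, while 0.123% of 15416 genes were called. Without Ttr as covariate the value was -0.56 (SE 0.90, adjusted p = 0.872), with 0.11% of genes called, and all 8 members had negative values.

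**Figure D3:**
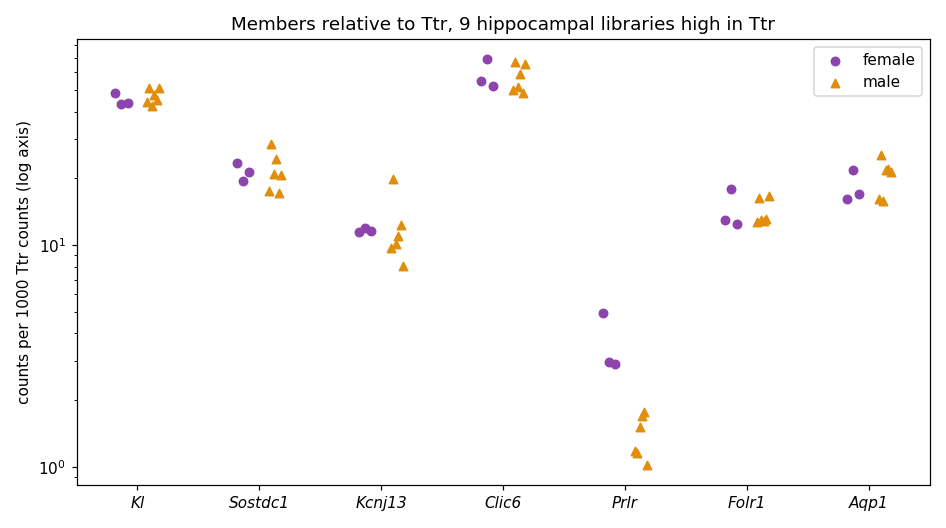
Counts of each member per 1000 Ttr counts (log axis) in the 9 hippocampal libraries with at least 4000 Ttr counts, 1 point per library, with circles for the 3 females and triangles for the 6 males. Kl stays between 42.5 and 51.2, and Prlr is 2.90 to 4.92 in females and 1.02 to 1.77 in males.

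The rats highest in the hippocampus were only in part those highest in the cortex. Rat 7 ranked 1 of 32 for Ttr in the hippocampus and 16 in the cortex, with 164331 and 61 counts. Rat 51 ranked 2 in the hippocampus and 32 in the cortex, with 93420 and 15 counts. Rat 58 ranked 30 in the hippocampus and 1 in the cortex. Other rats were high in both regions, with ranks of 3 in the hippocampus and 4 in the cortex for rat 26, 6 and 5 for rat 10, and 9 and 2 for rat 19. Over the 32 rats, r between the regions was -0.02 for Ttr and between -0.02 and 0.102 for the 8 members, with adjusted two-sided permutation p-values of 0.981 for each r and of at least 0.754 for each rho. Without the 2 rats farthest from the median it was 0.027 to 0.137.

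**Figure D4:**
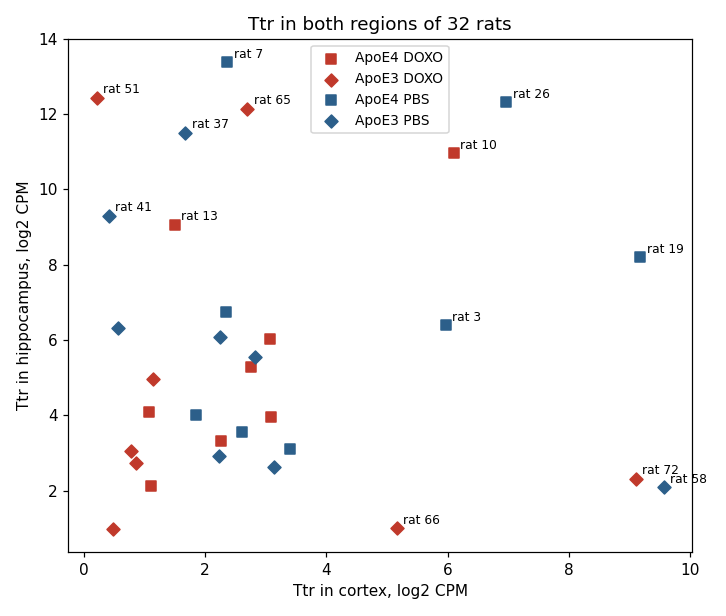
Log2 CPM of Ttr in the hippocampus (vertical axis) against that in the cortex (horizontal axis) of the same animal, with 1 point per rat, red for doxorubicin and blue for PBS, squares for ApoE4 and diamonds for ApoE3. Rats 7 and 51 are high in the hippocampus alone, rats 58 and 72 in the cortex alone, and r over the 32 rats is -0.02.

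A further list of 47 choroid plexus genes, of which 45 matched an identifier, moved with the members on average, though not gene by gene. Its mean over the 41 genes whose log2 CPM averaged 0 or more in the hippocampus followed the mean of the 8 members with r = 0.982, and over the 35 such genes in the cortex with r = 0.906. Of these, 26 of 41 had r above 0.8 with the members in the hippocampus, beside 217 of 14339 genes in all, and 5 of 35 in the cortex, beside 5 of 14335. Above 0.5 were 34 of 41, beside 1201 genes in all, and 15 of 35, beside 78. The median r of the listed genes was 0.846 in the hippocampus and 0.333 in the cortex. The lowest was -0.435 in the hippocampus, for Atp1b1, and -0.399 in the cortex, for Wfdc2. Ranked over all genes, the 10 most like the members in the hippocampus were Cldn2, a tight junction claudin (r = 0.986), Mfrp (0.984), Tmem72 (0.975), Ace, angiotensin-converting enzyme (0.965), Enpp2, the lysophospholipase autotaxin (0.963), Itpripl1 (0.962), Prr32 (0.960), Mdk, the growth factor midkine (0.954), F5, coagulation factor V (0.952), and Abca4, a retinoid transporter (0.947). In the cortex they were Slc4a5, a sodium bicarbonate cotransporter (0.942), F5 (0.893), Mfrp (0.877), Enpp2 (0.832), Msx1 (0.803), Ace (0.793), Mdk (0.791), Vat1l (0.791), Cdh3 (0.760) and Kcne2 (0.748). All are over 32 libraries.

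Markers of neighbouring tissue moved with the members to differing degrees. The mean of 9 ependymal genes had r = 0.821 with the member mean in the hippocampus and 0.338 in the cortex, and the whole list (11 genes matched of 12) summed to at most 188 CPM, in rat 7. Plvap and Flt1, of endothelium, had r = 0.776 and 0.439. The 12 meningeal genes had 0.444 and 0.431, the 4 hippocampal neuron genes 0.449 and 0.457, and the 2 pineal genes 0.071 and 0.464. The pineal list summed highest in the hippocampus of rats 31 and 45, at 1467 and 1715 CPM, where Ttr was at 65.5 and 47.1 CPM. The 4 cortical neuron genes had r = -0.07 and 0.219, the 5 striatal genes 0.144 and -0.25, and Hbb of red cells 0.248 and -0.13. No list gene was at 0 throughout a group. Their part in the spread of the members was not tested.

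Doxorubicin was set against PBS within each region and genotype, the comparison the study was made for. In the hippocampus of ApoE4 rats each of the 7 members tested had a lower fitted level under doxorubicin, and 0 of the 7 passed in edgeR's quasi-likelihood test with sex as covariate (Benjamini-Hochberg adjusted p under 0.05 over 14873 genes). Of all genes 0% passed there, and 1098 had an unadjusted p under 0.05, as did all 7 members. DESeq2 called 1 gene and limma 0, and neither called a member. The log2 of doxorubicin over PBS was -3.70 for Ttr (SE 1.66, adjusted p = 0.646), -3.45 for Sostdc1 (SE 1.35), -3.04 for Kl (SE 1.26), -3.00 for Kcnj13, -2.89 for Clic6, -2.55 for Folr1 and -2.46 for Aqp1. The 95% interval of Ttr, by a normal quantile on its SE, was -6.96 to -0.45, narrower than the degrees of freedom of that test would give. By limma, which fits means of log2 values, the 7 values were smaller, with Ttr at -1.62 and a median of -1.12, against -3.00 in edgeR. With robust moderation of the spread in edgeR, 3 of the 7 had an unadjusted p under 0.05 (Sostdc1, Kcnj13 and Clic6). Prlr fell below the filter on low counts, and without that filter it was at -2.99. Its value depended on the fit. DESeq2 on treatment alone gave -2.75 for Prlr, but -0.36 with its default replacement of outlying counts. The authors' deposited table also gives -0.36 for Prlr, beside -1.885 for Folr1 to -2.943 for Kcnj13 among the 7 tested members.

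These values lean on 2 PBS libraries. Without rat 7 of the ApoE4 PBS group, the log2 value of Aqp1 became -0.94 and that of Folr1 -1.02, and without rat 26 of the same group that of Ttr became -2.08. Of the further choroid list 41 of 43 tested genes were lower and 2 higher, with 0 called and a median of -0.65, against -0.01 over all genes, of which 47.0% were higher. All 10 ependymal genes and 11 of 12 meningeal genes tested were lower, with medians of -0.40 and -0.39 and 0 called. The ependymal list summed to 52.2 to 101 CPM in doxorubicin libraries, against 56.5 to 188 CPM in PBS libraries, and the meningeal list to 112 to 1682 CPM, against 123 to 1031 CPM. Their part in the members' values was not tested.

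In the hippocampus of ApoE3 rats the direction depended on how libraries were averaged. The means were higher under doxorubicin (Ttr 1263 CPM, against 470 CPM in PBS), and the medians lower (7.42 CPM, against 57.3 CPM). edgeR, which fits means, put all 6 tested members higher, with Ttr at 3.04 (SE 2.04, adjusted p = 0.648, 95% interval -0.96 to 7.04), Kl at 2.14, Clic6 at 2.12, Folr1 at 1.80, Kcnj13 at 1.28 and Aqp1 at 1.19. None of the 6 passed, none had an unadjusted p under 0.05, and 0% of 14899 genes were called in edgeR (1530 with an unadjusted p under 0.05; 145 called by DESeq2 and 0 by limma, with 0 members by either). Sostdc1 and Prlr were under the filter, and without it they were at 2.27 and 2.66.

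In limma 5 of these 6 were lower, with Ttr at -0.85 and Aqp1 at -1.15. Without the doxorubicin library of rat 65, the edgeR values were -0.31 for Ttr, -0.42 for Aqp1 and -0.43 for Kcnj13. The authors' deposited table gives -2.0 for Ttr, -2.04 for Sostdc1, -1.76 for Kl, -1.14 for Clic6 and -0.51 for Folr1, but 1.02 for Kcnj13, 0.87 for Aqp1 and 2.61 for Prlr, and none of the 8 has an adjusted p under 0.05 in the authors' deposited table. DESeq2 on treatment alone, with its default replacement of outlying counts, gave -2.0 for Ttr, and without the replacement 1.43, with all 8 members positive. The replacement acts on groups of at least 7 replicates, and a fit with sex as covariate leaves fewer in each class. The 12 meningeal genes tested were all lower in this comparison (median -1.44, 0 called), 9 of 10 ependymal genes were higher (median 0.39), and 30 of 41 further choroid genes were higher (median 0.16), against 50.8% of all genes. The meningeal list summed to 88.1 to 507 CPM in doxorubicin libraries, against 113 to 1007 CPM in PBS libraries, and the ependymal list to 51.9 to 122 CPM, against 45.9 to 89.9 CPM. What these lists contribute was not tested.

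**Figure D5:**
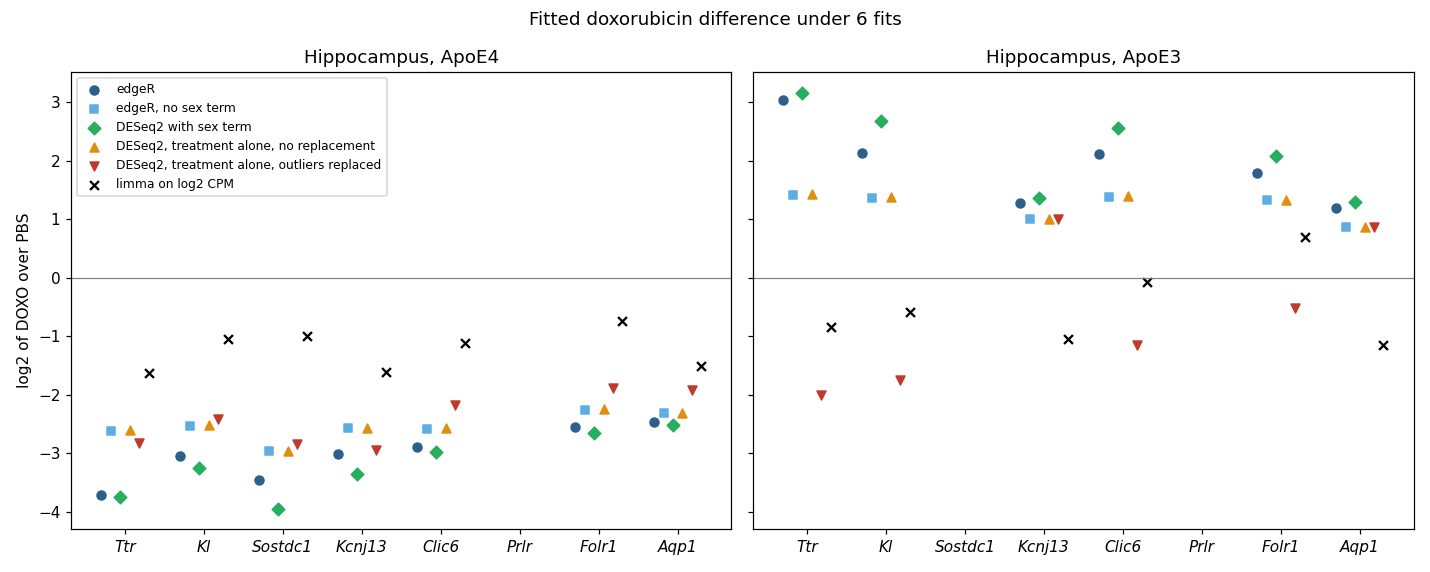
Fitted log2 of doxorubicin over PBS for each member in the hippocampus of ApoE4 rats (left) and ApoE3 rats (right), with 1 symbol for each of 6 fits; members under the filter on low counts (Prlr in both panels, Sostdc1 on the right) have no symbol. In ApoE4 rats every symbol is below 0, and in ApoE3 rats Ttr ranges from -2.0 to 3.17 by fit.

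In the cortex few members passed the filter. In ApoE4 rats the 5 tested were lower under doxorubicin and 0 passed (0% of 14838 genes called in edgeR, 1308 with an unadjusted p under 0.05, among them all 5 members; DESeq2 called 37 genes and limma 0, none a member). The log2 value was -2.50 for Ttr (SE 1.00, adjusted p = 0.472), -1.74 for Clic6 (SE 0.61), -1.55 for Kl (SE 0.58), -0.92 for Kcnj13 (SE 0.33) and -0.76 for Aqp1 (SE 0.30). Their median was -1.55 in edgeR and -0.84 by limma, and with robust moderation 2 of the 5 had an unadjusted p under 0.05 (Kcnj13 and Clic6). The ApoE4 PBS group held rat 19, and all 12 meningeal genes tested were lower as well, with a median of -0.31, 0 called and a summed level of 101 to 551 CPM under doxorubicin, against 154 to 463 CPM in PBS. Their part was not tested. In ApoE3 rats 0 of the 3 tested passed (0% of 14775 genes called in edgeR, 1366 with an unadjusted p under 0.05 and none of them a member; DESeq2 called 77 genes and limma 0). Ttr was at -0.45, Kcnj13 at 0.19 and Aqp1 at 0.42. The Ttr value was -3.21 without the doxorubicin library of rat 72 and 3.08 without the PBS library of rat 58. The authors' deposited table gives 0.63 for Ttr and 0.44 for Aqp1 in this comparison. It gives 1.00 for Kcnj13, with an unadjusted DESeq2 p of 0.0304 and an adjusted p of 0.539.

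The doxorubicin effect in ApoE4 rats minus that in ApoE3 rats was negative for all 8 members in the hippocampus, from -3.69 for Aqp1 to -6.71 for Ttr, and 0 passed. Their median was -5.11 in edgeR and -0.75 by limma, where Ttr was at -0.77. All 8 had an unadjusted p under 0.05, with adjusted p from 0.455 for Prlr to 0.558 for Aqp1 in edgeR, where 0% of genes were called and 1261 had an unadjusted p under 0.05. DESeq2 called 2 genes there and limma 0. In the cortex 0 of 6 passed (0% of genes called in edgeR, 834 with an unadjusted p under 0.05, and 0 by DESeq2 or limma), 1 member had an unadjusted p under 0.05 (Aqp1, and 0 with robust moderation), and values ran from -1.01 to -1.53. These differences use the same libraries as the comparisons above.

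ApoE4 was compared with ApoE3 in PBS rats. In the hippocampus all 8 members were fitted higher in ApoE4 rats, from 2.04 for Kcnj13 (SE 1.18) to 3.40 for Ttr (SE 1.81) on the log2 scale. Their median was 2.68 in edgeR and 0.92 by limma, where Ttr was at 1.41. None of the 8 passed in edgeR (adjusted p from 0.233 to 0.417; 4 with an unadjusted p under 0.05, and 1 with robust moderation), while 3.81% of 15416 genes were called. The ApoE4 PBS libraries in this comparison are those also used against doxorubicin, and they include rats 7 and 26. Of the further choroid list 40 of 44 were higher, with 0 called, against 49.8% of all genes higher. Of the ependymal list 9 of 10 were higher (median 0.53), and of the meningeal list 11 of 12 were lower (median -0.40), with 0 called in either. Their part in the members' values was not tested.

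In the cortex of PBS rats 1 of 6 members tested passed. Aqp1 had 4.09, 6.02 and 16.2 CPM (lowest, median, highest) in ApoE4 rats, against 0.778, 2.63 and 10.8 CPM in ApoE3 rats. The groups overlapped through the library of rat 58, the highest of the ApoE3 group. The log2 ratio was 1.12 (SE 0.40, adjusted p = 0.0447 in edgeR), in a comparison in which 18.2% of 15315 genes were called and 9.63% were called higher, so that 1 of 6 is near the background. The call was absent in DESeq2, without the sex term (0 members called in both) and with robust moderation in edgeR (adjusted p = 0.0865). It was also absent without any 1 of the libraries of rats 1, 3, 7 or 19 of the ApoE4 PBS group or rats 37, 43, 45, 56, 59 or 61 of the ApoE3 PBS group, and without rat 58 5 members passed. Ttr was at 0.54 (SE 1.06), at 1.51 by limma, and at 4.03 without rat 58. In the same comparison 6 of 12 meningeal genes were called higher, among them Col1a1 at 1.23, and 6 of 40 further choroid genes, among them Igf2 at 1.23, which is on both lists. The meningeal list summed to 154 to 463 CPM in ApoE4 rats, against 139 to 262 CPM in ApoE3 rats. Aqp1 is also made by other cells, and the part of these tissues was not tested.

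Hippocampus was set against cortex in PBS rats of each genotype. In ApoE4 rats all 7 members tested were higher in the hippocampus and passed in edgeR, in a comparison in which 50.4% of 15432 genes were called and 24.7% were called higher. Ttr, at 8.56, 95.4 and 10670 CPM in the hippocampus and 3.53, 8.31 and 579 CPM in the cortex, had a log2 ratio of 3.85 (SE 1.44, adjusted p = 0.0257). The ratio was 4.22 for Clic6 (SE 1.06, adjusted p = 0.00121), 4.21 for Sostdc1 (SE 1.22), 3.90 for Kl (SE 1.10), 3.85 for Folr1 (SE 0.98), 2.82 for Kcnj13 (SE 0.94) and 2.46 for Aqp1 (SE 0.83). The regions overlapped for Ttr, since all hippocampal libraries but those of rats 7 and 26 lay within the cortical range.

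With the rat as a block, which pairs the 2 libraries of an animal, 4 of the 7 passed, namely Folr1, Sostdc1, Clic6 and Kl. Ttr was then at 2.47 (adjusted p = 0.0652), Kcnj13 at 1.08 and Aqp1 at 0.82. DESeq2 called 6 of the 7. By limma 2 passed, and the median of the 7 values was 2.04, against 3.85 in edgeR. Without rat 26 2 members passed and without rat 7 4, so 1 library decides several of these calls. Of the further choroid list 25 of 43 were called higher and 3 lower, with Perp at 2.19 and Calml4 at 3.57. Perp followed the members little in the hippocampus (r = 0.191, against 0.822 for Calml4). Of the ependymal list 9 of 11 were called higher and 1 lower. Its sums were 56.5 to 188 CPM in the hippocampus, against 42.9 to 59.3 CPM in the cortex. The part of ependyma was not tested.

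In ApoE3 rats the same comparison gave 0 of 8 members in edgeR, where 51% of 15428 genes were called and 27.5% were called higher. All 8 values were positive, from 0.27 for Prlr to 3.58 for Ttr (SE 2.23, adjusted p = 0.183), and none had an unadjusted p under 0.05. DESeq2 called 5 members and limma 1. Without the cortical library of rat 58 5 passed, with Ttr at 6.67, and without the hippocampal doxorubicin library of rat 51 4 passed. Of the further choroid list 15 of 43 were called higher and 2 lower, and of the ependymal list 6 of 11 and 1. Of 12 meningeal genes 9 were called higher and 0 lower (median 1.37), against 2 higher and 0 lower in ApoE4 rats (median 0.06). The part of these tissues was not tested. The doxorubicin effect in the hippocampus minus that in the cortex gave 0 of 8 members in ApoE3 rats and 0 of 7 in ApoE4 rats (0% of genes called in edgeR for both, 0 members with an unadjusted p under 0.05, and 0 members called by DESeq2 or limma), with Ttr at 1.35 (SE 2.22) in ApoE3 and 0.57 (SE 1.91) in ApoE4 rats. In ApoE3 rats all 8 values were positive in edgeR, but 4 were negative by limma (Aqp1, Kcnj13, Kl and Ttr) and 3 with the rat as a block (Aqp1, Kcnj13 and Ttr). In ApoE4 rats 6 of 7 were negative in edgeR, 5 by limma and 4 with the block. An unadjusted p under 0.05 was found for 1235 genes in ApoE3 and 554 in ApoE4 rats. DESeq2 called 126 genes in ApoE3 and 0 in ApoE4 rats. The region difference was not tested between genotypes.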

How the data were processed

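Reads were aligned with STAR 2.5.2b and groups compared with DESeq2, per the submitters' processing notes. The counting tool, build, annotation and strandedness are not given in the sources used here. The authors deposited the count of reads per Ensembl gene, 32644 rows with 92 ERCC spike-ins and 1 donor row. The spike-ins were left out of the genes fitted, while the donor row was handled as a gene row. Their comparison tables give a log2 fold change, a p-value and a signal per library, deposited as the count divided by 1 size factor, which was not used. Total RNA came from frozen samples, per the labels' protocols.

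The counts entered edgeR 4.0.16 under R 4.3.3 (filterByExpr, TMM, quasi-likelihood F-test, sex as covariate, Benjamini-Hochberg, threshold 0.05), and also with DESeq2 1.42.0 and limma 3.58.1. Doxorubicin was compared with PBS on 16 libraries, and genotype, region and effect differences on 32. The same rat number marks both regions of an animal, and with that pairing member levels correlated at r = 0.02 between regions. The scripts were tested on simulated data. No batch is labelled, and rat numbers run in blocks by genotype, sex and treatment, so that a batch following them cannot be told apart from the groups. The 95% intervals of log2 values use a normal quantile on the fitted SE and include the spread between rats. They are narrower than the degrees of freedom of the F-test would give. Limits at 0 counts cover counting error only.

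The members and gene lists were chosen with earlier results of these data known. Each member is named, at most 4 genes of smallest p of each other list and comparison, and the 10 genes of highest correlation with the member mean in each region.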

Additional observations from a re-analysis of the deposited data

Results flagged for a closer look

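In 9 of the 64 combinations of gene and group, the highest library stood apart from the other 7 by more than Dixon's 95% critical value for 8 samples allows, on the log2 CPM scale. Chance alone gives about 1 such case in 20 groups, and the 8 members move together, so these are not independent. All 9 were in the cortex. The rule uses the gap below the single highest library, so several high libraries in a group hide each other. Rats 51 and 65 are such a case for Ttr in ApoE3 doxorubicin hippocampus, at log2 CPM 12.4 and 12.1. The rule therefore cannot compare the regions.

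In the ApoE3 PBS group it was the library of rat 58 for Ttr (log2 CPM 9.56), Clic6 (4.84), Kl (4.35), Sostdc1 (3.87), Kcnj13 (3.09) and Folr1 (2.95). In the ApoE3 doxorubicin group it was the library of rat 72 for Kl (4.24) and Sostdc1 (3.65). In the ApoE4 doxorubicin group it was the library of rat 10 for Ttr (6.11), whose hippocampal library was also among the 9 highest.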

How the results depend on the processing

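Scaling by RLE, in all 12 comparisons, and 1 fit of 32 libraries, in the 4 doxorubicin comparisons, kept the count of members called and the direction of each value examined. So did no filter on low counts, except that 8 members in place of 7 were called between regions in ApoE4 rats, where Prlr was then tested. Counts of members called moved as follows, and the causes were not tested. In ApoE4 cortex under doxorubicin, ERCC scaling gave 3, in a fit where edgeR's prior degrees of freedom were infinite, so that a gene's own spread had no weight. They were also infinite with ERCC scaling in ApoE3 cortex, where 0 members were called. ERCC scaling also shifted the median of all genes by 0.16 to 0.31 in the doxorubicin comparisons. For ApoE4 against ApoE3 in cortex, DESeq2 with and without outlier replacement, no sex term and robust moderation each gave 0, and leaving out 1 library gave 0 to 5. For hippocampus against cortex, ApoE3 rats had 5 members called by DESeq2 with or without replacement, 1 by limma, and 0 to 5 with 1 library left out. ApoE4 rats had 6 by DESeq2 with outlier replacement and 7 without it. They had 2 by limma, 4 with the replicate block by rat, and 2 to 7 with 1 library left out. The block moved no other count.

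Directions reversed in ApoE3 hippocampus under doxorubicin. Limma gave -1.15 for Aqp1, -1.04 for Kcnj13, -0.074 for Clic6, -0.85 for Ttr and -0.58 for Kl. DESeq2 on treatment alone with outlier replacement gave -0.51 for Folr1, -1.14 for Clic6, -2.0 for Ttr and -1.75 for Kl there, and 0.63 for Ttr in ApoE3 cortex. For hippocampus against cortex in ApoE3 rats, Prlr was at -0.83 by limma and -0.46 with the block, and the Ttr doxorubicin effect in hippocampus minus cortex at -0.58 and -0.70. Of the 8 members, 4 had a negative effect difference there by limma and 3 with the block.

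With 1 library left out, values ran, in ApoE3 hippocampus under doxorubicin, from -0.42 to 1.82 for Aqp1, -0.43 to 1.94 for Kcnj13 and -0.31 to 4.10 for Ttr; in ApoE3 cortex from -0.22 to 0.85 for Kcnj13 and -3.21 to 3.08 for Ttr. For ApoE4 against ApoE3 in cortex they ran from -0.65 to 1.29 for Folr1, -0.20 to 2.79 for Clic6 and -0.45 to 4.03 for Ttr. The difference of doxorubicin effects in cortex ran from -5.42 to 1.16 for Ttr, Prlr between regions in ApoE3 rats from -1.55 to 0.66, and the Ttr effect in hippocampus minus cortex from -3.01 to 5.01 in ApoE3 and -1.40 to 2.07 in ApoE4 rats.

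Median correlations between members stayed at 0.927 to 0.959 in hippocampus and 0.721 to 0.795 in cortex under other prior counts and scalings. Several choices, among them robust moderation, DESeq2 on treatment alone and Ttr as covariate, were made after the data were seen. Low counts limit Prlr and Sostdc1 most.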
